A study of Gossypium hirsutum with 6 samples.

Results

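The outer 5 Mb of the chromosomes of allotetraploid cotton was examined for 2 histone marks in leaf chromatin. Every peak of the 4 deposited peak lists was taken on chromosomes A01 to A13 and D01 to D13 whose midpoint lay within 5 Mb of the first peak start or the last peak end of its chromosome over the 4 lists. These 52 ends held 51229 of 174507 listed peaks, and the interiors of the same chromosomes held 106470. The remaining peaks lay on scaffolds and were not used. The end with low coordinates is called the low end below, and the opposite one the high end.

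Leaves came from Gossypium hirsutum TM-1, a cultivated upland cotton grown in a greenhouse and harvested at 20 days, and the plants carried no treatment or mutation in the labels. Nuclei were digested with micrococcal nuclease, and chromatin was precipitated with antibodies against H3K27me3 or H3K4me3 (2 libraries each) or left as input (2 libraries, no list used). The labels do not say whether the libraries of a mark came from separate plants. The study calls them biological replicates and reports that their reads correlated well. A leaf holds many cell types. A peak list thus cannot tell whether overlapping marks sat in the same cells.

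H3K4me3 is trimethylation of lysine 4 on histone H3, which marks the starts of transcribed genes in plants. H3K27me3 is set by Polycomb repressive complex 2 over genes that are kept silent in a tissue, and it often spreads over whole gene bodies and neighbouring genes. G. hirsutum carries an A and a D subgenome from 2 ancestors. The A chromosomes are longer because they hold more retrotransposons, and genes in both subgenomes crowd towards the chromosome ends. The ancestors of A02 and A03, and of A04 and A05, are known to have exchanged arms, so that equal numbers in A and D do not mark fully matching chromosomes there.

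The lists under replicate 1 carried the mark of their sample labels and were used for every test. They held 21681 H3K4me3 peaks and 7368 H3K27me3 peaks in the ends. The replicate 2 lists were deposited under names that carry the other mark than their sample labels. They are called the K4me3-named list (sample labelled H3K27me3, 13389 peaks in the ends) and the K27me3-named list (sample labelled H3K4me3, 8791 peaks in the ends) here. In the ends, 51.7% of the H3K4me3 replicate 1 peaks of D and 53.3% of those of A overlapped the K4me3-named list, against 16.9% and 14.4% for the list of the same label. For H3K27me3 replicate 1, 93.0% of the D peaks and 92.3% of the A peaks overlapped the K27me3-named list, against 3.11% and 2.90% for the list of the same label. Replicate 2 results are therefore given by deposited name, and the values by sample label stand with the other alternative settings.

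To compare how densely both marks occupied ends and interiors, peaks were counted per Mb of each chromosome. Both marks were denser in the ends of every chromosome. The ends made up 13.4% of the length between first and last peaks, but held 31.0% of the chromosomal H3K4me3 peaks and 35.5% of the chromosomal H3K27me3 peaks. The replicate 2 lists had 31.4% (K4me3-named) and 36.0% (K27me3-named) of their chromosomal peaks there.

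H3K4me3 had 86.3 ± 10.1 peaks per Mb in D ends, against 38.4 ± 9.83 per Mb in D interiors (SD, n = 13 chromosomes). The 13 D end values ran from 69.1 (median 86.7) to 103.7 per Mb, and the D interiors from 29.5 (median 34.6) to 64.3 per Mb. In A, H3K4me3 had 80.4 ± 8.93 peaks per Mb in ends, against 22.8 ± 8.00 per Mb in interiors. End and interior values did not overlap in either subgenome. Over the 13 chromosome numbers, with the A and D chromosome of a number averaged, the log2 ratio of ends to interior was 1.54 ± 0.30, or 2.90-fold, and higher in the ends in 13 of 13 (exact two-sided sign-flip permutation test over 8192 sign patterns, p = 0.000244, adjusted p = 0.000692 over 17 tests by Benjamini-Hochberg). This p is the smallest that the test can give. Chromosome numbers are not replicates of a plant, so each test describes how the peaks of 1 library per mark were spread.

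H3K27me3 had 31.5 ± 9.38 peaks per Mb in D ends, against 11.2 ± 4.20 per Mb in D interiors. In A it had 25.2 ± 5.87 peaks per Mb in ends, against 5.99 ± 2.36 per Mb in interiors. All 13 A ends exceeded the highest A interior (11.3 per Mb), while 11 of 13 D ends exceeded the highest D interior, that of D05 with 23.0 per Mb. The log2 ratio of ends to interior was 1.82 ± 0.54, or 3.53-fold, in the same 13 of 13 direction and with the same p. H3K27me3 covered 8.74% of the bases of D ends, against 2.497% of D interiors, and 5.91% of A ends, against 1.23% of A interiors. H3K4me3 covered 4.76% of D ends, against 2.24% of D interiors, and 4.43% of A ends, against 1.30% of A interiors.

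**Figure D1:**
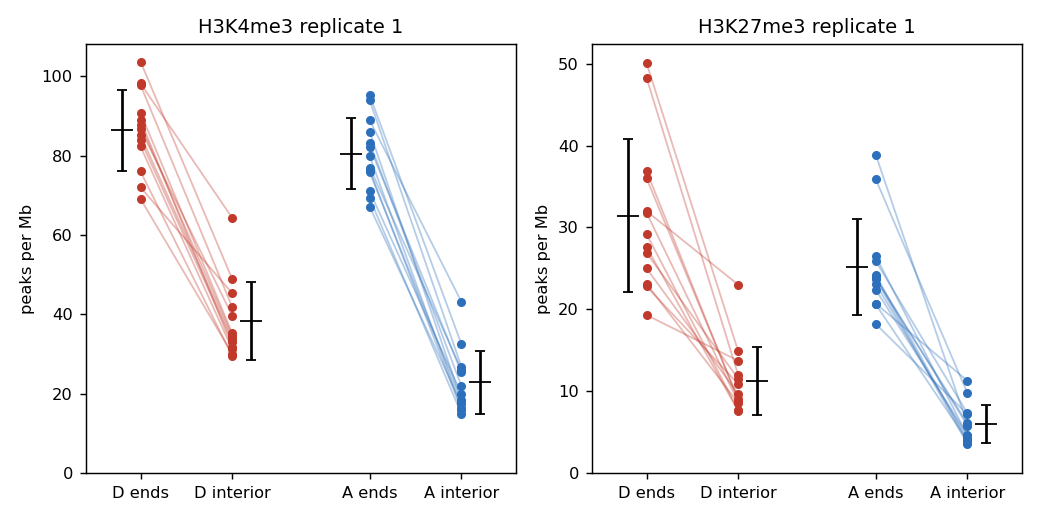
Peaks per Mb (vertical axes, starting at 0) in the ends and the interior of each D and A chromosome for H3K4me3 (left) and H3K27me3 (right), replicate 1. Each point is 1 chromosome, lines join the ends and the interior of a chromosome, and the black bars are the mean and SD over 13 chromosomes; every line falls from ends to interior, and D and A ends lie closer together for H3K4me3 than their interiors do.

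The marks did not gain equally towards the ends. The log2 ratio of ends to interior was larger for H3K27me3 than for H3K4me3 by 0.28 ± 0.30, in 11 of 13 numbers (exact sign-flip permutation test, p = 0.00757, adjusted p = 0.0129), and was 0.29 ± 0.36 in the replicate 2 lists (adjusted p = 0.0253). There were 2.74 H3K4me3 peaks for each H3K27me3 peak in D ends, against 3.41 in D interiors, and 3.19 in A ends, against 3.83 in A interiors. The study called H3K4me3 in the narrow mode of its peak caller and H3K27me3 in the broad mode, where nearby enriched pieces become 1 peak, so the mode of calling and the mark cannot be told apart in this difference. The call was lost in 5 settings, with 2 Mb ends (0.14), low ends alone (0.27), high ends alone (0.29), without numbers 2 to 5 (0.30) and without numbers 10 and 11 (0.22).

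Among chromosome numbers, H3K4me3 had its largest gain at number 2, with a log2 ratio of 1.87. D02 had 89.0 H3K4me3 peaks per Mb in the ends, against 31.8 in the interior, and A02 had 76.3 in the ends, against 15.9 in the interior. For H3K27me3 the largest gain was at number 10, with a log2 ratio of 2.37. D10 had 48.3 H3K27me3 peaks per Mb in the ends, against 11.95 in the interior, and A10 had 38.9 in the ends, against 5.89 in the interior. Number 5 had the smallest gain for both marks, with log2 ratios of 0.83 for H3K4me3 and 0.68 for H3K27me3. Its interiors were the densest of their subgenome for both marks. D05 had 98.2 H3K4me3 peaks per Mb in the ends, against 64.3 in the interior, and A05 had 88.9 in the ends, against 43.1 in the interior. For H3K27me3, D05 had 32.0 peaks per Mb in the ends, against 23.0 in the interior, and A05 had 20.7 in the ends, against 11.3 in the interior, where the A ends had a median of 23.8.

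To set each end against interior stretches of equal length, whole windows of 5 Mb were laid centrally in the interiors (124 in D and 198 in A). The remainder beside each end was left out, so the windows do not cover the interior directly next to the ends. A D end held a median of 411 H3K4me3 peaks (range 159 to 705), against 153.5 (34 to 648) in a D interior window. An A end held a median of 371 (196 to 605), against 69 (8 to 611) in an A window. For H3K27me3, a D end held a median of 148 peaks (71 to 319), against 42 (5 to 272) in a D window, and an A end 115 (59 to 241), against 14 (0 to 201) in an A window. Of the 26 ends of each subgenome, 23 in D and 21 in A held more H3K4me3 peaks than any window of their own chromosome. For H3K27me3 these were 18 in D and 19 in A. Some interior windows were thus as full as an end, and for H3K27me3 3 D windows and 6 A windows exceeded the median end.

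To resolve where the gain lay, peaks were counted in steps of distance from the end. H3K4me3 was densest in the outermost Mb, at 103.3 peaks per Mb in D and 99.1 in A, followed by 85.6 in D and 80.2 in A between 1 and 2 Mb. It came to 79.1 in D and 68.4 in A between 4 and 5 Mb, just inside the limit, and to 70.0 in D and 60.3 in A between 5 and 6 Mb, just outside it. H3K27me3 had no such rim. In D it stood at 30.7, 32.8, 32.1, 33.2 and 28.6 peaks per Mb over the outer 5 Mb, and in A at 26.8, 29.8, 23.5, 21.9 and 24.1. Just outside the limit it was 23.4 in D and 18.7 in A, and between 9 and 10 Mb 17.8 in D and 12.8 in A. The SD over chromosomes of a single 1 Mb step was large, for example 33.2 ± 12.8 H3K27me3 peaks per Mb between 3 and 4 Mb of D ends, so neighbouring steps of H3K27me3 lay within each other's spread. Densities fell gradually with distance and the 5 Mb limit marked no step in them.

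**Figure D2:**
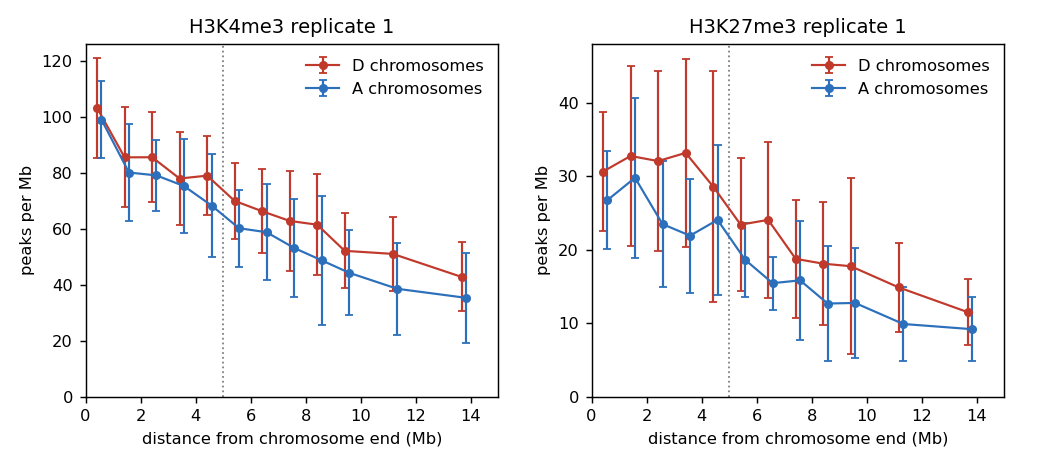
Peaks per Mb (vertical axes) against distance from the chromosome end in Mb (horizontal axes) for H3K4me3 (left) and H3K27me3 (right), replicate 1, in steps of 1 Mb up to 10 Mb and of 2.5 Mb beyond; points are means and bars the SD over 13 chromosomes with both ends averaged, and the dotted line is the 5 Mb limit. H3K4me3 is highest in the first Mb (103.3 in D, 99.1 in A), while H3K27me3 stays near its outermost level up to 4 Mb in D.

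To examine whether peaks of the ends differed in size, median widths were compared. H3K4me3 peaks were slightly narrower in the ends, with pooled medians of 475 bp in D ends against 508 bp in D interiors, and 477 bp in A ends against 500 bp in A interiors. The log2 ratio was -0.088 ± 0.039 and lower in the ends for 13 of 13 numbers (exact sign-flip permutation test, p = 0.000244, adjusted p = 0.000692). In the replicate 2 lists it was -0.045 ± 0.055 (exact test, adjusted p = 0.0244). Broad H3K4me3 peaks of at least 2 kb were rare. They made up 0.241% of the H3K4me3 peaks of D ends (27 of 11224), against 0.306% in D interiors (76 of 24805). In A they made up 0.239% in ends (25 of 10457), against 0.222% in interiors (52 of 23391). The exact intervals of these shares overlapped between ends and interiors in both subgenomes, and the shares were not tested.

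The median H3K27me3 width did not pass the test. It was 1495 bp in D ends against 1407 bp in D interiors, and 1341 bp in A ends against 1309 bp in A interiors, a log2 ratio of 0.026 ± 0.21 that was higher in 6 of 13 numbers (exact sign-flip permutation test, p = 0.664, adjusted p = 0.705). The mean width did pass, at 0.22 with 10 of 13 higher. The upper tail of the distribution was longer in the ends. The widest 10% of H3K27me3 peaks began at 6761 bp in D ends, against 4967 bp in D interiors, and at 5702 bp in A ends, against 4752 bp in A interiors. Domains of at least 8 kb made up 7.26% of the H3K27me3 peaks of D ends (297 of 4090, exact 95% interval 6.48 to 8.10%), against 3.34% of those of D interiors (243 of 7278, 2.94 to 3.78%). In A they made up 5.00% in ends (164 of 3278, 4.28 to 5.81%), against 2.85% in interiors (174 of 6103, 2.45 to 3.30%). This share was higher in the ends on 12 of 13 D and 9 of 13 A chromosomes in replicate 1, and on 12 of 13 of each in the K27me3-named list. Without numbers 10 and 11 it was 5.57% in D ends against 3.15% in D interiors, and 4.74% in A ends against 2.65% in A interiors. These shares were not tested, and their intervals treat peaks as independent.

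By the median gap, neighbouring peaks of a mark stood closer in the ends. These gaps are not independent of the densities tested above. The median gap between H3K27me3 peaks was 6.13 kb in D ends, against 20.3 kb in D interiors, and 9.17 kb in A ends, against 32.2 kb in A interiors. For H3K4me3 it was 6.17 kb in D ends, against 9.12 kb in D interiors, and 6.27 kb in A ends, against 9.49 kb in A interiors. Gaps under 1 kb were not more frequent in the ends for H3K4me3 (17.9% against 18.8% in D, 17.7% against 18.8% in A). For H3K27me3 they were (18.7% against 14.5% in D, 16.0% against 13.2% in A). The median H3K4me3 peak free of H3K27me3 lay 20.7 kb from the nearest H3K27me3 peak in D ends, against 39.8 kb in D interiors, and 22.0 kb in A ends, against 46.2 kb in A interiors. The distance in the other direction, from H3K27me3 peaks free of H3K4me3, differed little. Its median was 4.8 kb in D ends against 5.2 kb in D interiors, and 4.2 kb in A ends against 4.5 kb in A interiors.

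To compare how the marks met, peaks of one mark that overlapped the other by at least 1 bp were counted. Among H3K4me3 peaks, 16.4% overlapped H3K27me3 in D ends (1842 of 11224, 95% interval 15.7 to 17.1%), against 14.1% in D interiors (13.7 to 14.6%). In A the share was 14.1% in ends (1474 of 10457, 13.4 to 14.8%), against 12.6% in interiors (12.18 to 13.04%). The difference was 1.90 ± 2.95 percentage points, with 10 of 13 numbers higher in the ends (exact sign-flip permutation test, p = 0.0337, adjusted p = 0.0409). The call was lost when any one of numbers 1, 4, 6, 7, 8, 10, 11 or 12 was left out, was 0.90 points without both 10 and 11, and turned to -0.059 points when the overlap had to cover 50% of both peaks. The replicate 2 lists shared far fewer peaks, with 2.14% in D ends against 1.54% in D interiors, and 1.48% in A ends against 1.26% in A interiors, a difference of 0.44 ± 0.53 points (exact test, adjusted p = 0.0244).

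**Figure D3:**
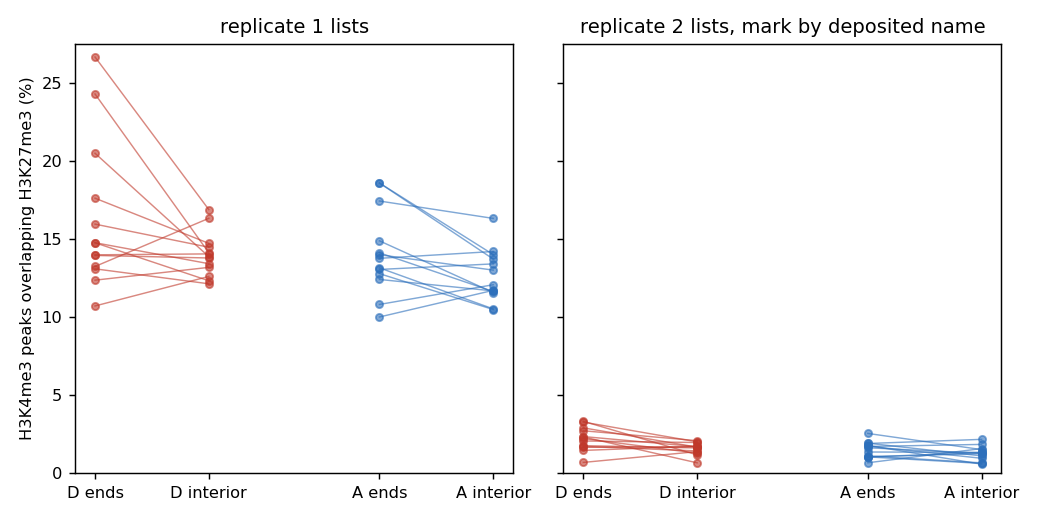
Percent of the H3K4me3 peaks of a chromosome that overlap H3K27me3 by at least 1 bp (vertical axis), in ends and interiors of the 13 D (red) and 13 A (blue) chromosomes, with lines joining parts of 1 chromosome, for replicate 1 lists (left) and replicate 2 lists by deposited name (right). Shares lie between 10 and 26.7% in the replicate 1 ends and much lower in replicate 2, and 3 D chromosomes stand above the rest in the ends.

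Among H3K27me3 peaks, the share that overlapped H3K4me3 was lower in the ends. It was 34.5% in D ends (1412 of 4090) against 38.9% in D interiors, and 35.8% in A ends (1172 of 3278) against 38.7% in A interiors, a difference of -3.82 ± 4.72 points with 9 of 13 numbers lower in the ends (exact sign-flip permutation test, p = 0.0181, adjusted p = 0.0236). In the replicate 2 lists the difference was 0.18 ± 0.83 points (exact test, adjusted p = 0.474), with 2.74% in D ends against 2.46% in D interiors and 2.37% in A ends against 2.35% in A interiors. The direction thus rested on replicate 1.

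Shared bases were then set against the bases that each mark covered, as the bases under both marks times the length, divided by the product of the bases under each mark. A value of 1 is what coverages alone give if the marks are spread evenly and without regard to each other. It averaged 1.67 ± 0.44 in D ends, against 5.03 ± 1.48 in D interiors, and 2.01 ± 0.34 in A ends, against 8.98 ± 2.95 in A interiors. The log2 ratio of ends to interior was -1.84 ± 0.52, lower in the ends for 13 of 13 numbers (exact sign-flip permutation test, p = 0.000244, adjusted p = 0.000692). The divisor holds the coverages, which were higher in the ends (for H3K27me3 8.74% against 2.497% in D, and 5.91% against 1.23% in A). The share of H3K4me3 peaks overlapping H3K27me3 differed far less. This result is therefore not independent of the densities tested above. The value also depends on the length over which the product is taken. With the product taken in windows of 1 Mb, a choice made after the data were seen, it was 1.69 ± 0.28 in D ends, against 3.84 ± 1.00 in D interiors, and 1.90 ± 0.26 in A ends, against 4.95 ± 1.54 in A interiors. In the replicate 2 lists the pooled value lay below 1 throughout, at 0.137 in D ends against 0.354 in D interiors, and 0.143 in A ends against 0.598 in A interiors. The log2 ratio of ends to interior was -1.75 ± 1.07 in these lists, lower in the ends for 11 of 13 numbers (exact sign-flip permutation test, adjusted p = 0.00277). Whether shared bases exceeded the product thus differed between replicates, while the lower mean value in the ends did not.

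The stretches under both marks were short, with a median of 377 bp for 1846 stretches in D ends and 378 bp for 1477 in A ends. Their H3K27me3 side was found again in the K27me3-named list for 92.9% in D ends and 92.1% in A ends. Their H3K4me3 side was found again in the K4me3-named list for 6.50% in D ends (95% interval 5.42 to 7.72%) and 5.82% in A ends (4.68 to 7.14%). Among whole H3K4me3 peaks of D ends, 7.11% of those that overlapped H3K27me3 were found again (131 of 1842), against 60.5% of those that did not (5673 of 9382). In A ends these were 6.17% (91 of 1474) and 61.0% (5478 of 8983). Interiors behaved alike, with 5.99% against 59.7% in D and 6.82% against 61.1% in A. Most places with both marks in replicate 1 therefore held one mark only in the replicate 2 lists. Of all such stretches, 5.63% in D ends and 5.08% in A ends carried both marks in both replicates.

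To compare the subgenomes at equal length, D ends were set against A ends of the same number, each with 10 Mb a chromosome and 130 Mb a subgenome. Outside the ends, D interiors were denser in both marks than A interiors (values above). As ratios of D to A, the ends lay closer together than the interiors for both marks. In peaks per Mb they did so for H3K4me3 but not for H3K27me3. For H3K4me3, D ends exceeded A ends by 0.10 ± 0.12 on the log2 scale, or 1.07-fold, in 10 of 13 numbers (exact sign-flip permutation test, p = 0.0107, adjusted p = 0.0166). In the replicate 2 lists it was 0.032 ± 0.11 (exact test, adjusted p = 0.372), and the call was also lost without numbers 10 and 11, at 0.084. For H3K27me3, D ends exceeded A ends by 0.30 ± 0.22, or 1.23-fold, in 12 of 13 numbers (exact sign-flip permutation test, p = 0.000977, adjusted p = 0.00237), and by 0.28 ± 0.20 in the replicate 2 lists (adjusted p = 0.00277). In the outermost 2 Mb the H3K27me3 difference was 0.14 and did not pass the test.

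The contrast of ends with interiors was smaller in D than in A for both marks. The log2 ratio of ends to interior was 1.197 in D and 1.88 in A for H3K4me3, a difference of -0.68 ± 0.19, and 1.50 in D and 2.13 in A for H3K27me3, a difference of -0.63 ± 0.28. Each was lower in D for 13 of 13 numbers (exact sign-flip permutation test, p = 0.000244, adjusted p = 0.000692) and kept its call under each alternative. D chromosomes spanned 46.7 to 67.3 Mb and A chromosomes 62.9 to 103.6 Mb, so the ends took 14.9 to 21.4% of a D chromosome and 9.65 to 15.9% of an A chromosome. The length of the interior and the subgenome cannot be told apart in this contrast.

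By number, the H3K4me3 ratio of D to A ends was highest at number 4, with 839 peaks in D04 ends and 671 in A04 ends (log2 ratio 0.32), and lowest at number 9, with 720 in D09 and 770 in A09 (-0.097). The H3K27me3 ratio was highest at number 5, with 320 peaks in D05 ends and 207 in A05 ends (0.63), and lowest at number 12, with 228 in D12 and 237 in A12 (-0.056). Numbers 4 and 5 are among those with exchanged arms. End by end, over 26 pairs of the same number and side, the D end held more H3K4me3 peaks in 15 (ratio 0.787 to 1.52, median 1.06) and more H3K27me3 peaks in 21 (0.887 to 2.20, median 1.15).

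Widths and overlaps of D and A ends were compared next. The median H3K4me3 width differed by -0.0048 ± 0.085 on the log2 scale (exact test, adjusted p = 0.839). The median H3K27me3 width was higher in D ends by 0.15 ± 0.18 in 10 of 13 numbers (exact sign-flip permutation test, p = 0.0132, adjusted p = 0.0187), but by 0.078 ± 0.19 in the replicate 2 lists (adjusted p = 0.240) and by 0.11, with no call, without numbers 10 and 11. The share of H3K4me3 peaks that overlapped H3K27me3 was higher in D ends by 2.18 ± 2.49 points in 11 of 13 numbers (exact test, p = 0.00317, adjusted p = 0.00674), and by 0.69 ± 0.80 points in the replicate 2 lists (adjusted p = 0.0208). H3K27me3 also covered more of the D ends (8.74%) than of the A ends (5.91%), and its part in that difference was not tested. Relative to the product of coverages, D ends shared fewer bases than A ends, with a log2 ratio of -0.29 ± 0.33 in 10 of 13 numbers (exact test, p = 0.00562, adjusted p = 0.0106), but -0.0065 ± 0.89 in the replicate 2 lists (adjusted p = 0.979). The divisor of that ratio holds the coverages, so it is not independent of them. Bases under both marks, before division, came to 825.5 kb in D ends and 648.2 kb in A ends in replicate 1. The share of H3K27me3 peaks that overlapped H3K4me3 differed by -1.48 ± 5.43 points (exact test, adjusted p = 0.409).

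The ends differed widely among themselves. The fullest D end for H3K4me3 was the low end of D05 (D05:1509-5001508) with 705 peaks in replicate 1 and 428 in the K4me3-named list. It held 118 H3K27me3 peaks, below the median D end. The emptiest D end for both marks was the low end of D09 (D09:133692-5133691) with 159 H3K4me3 and 71 H3K27me3 peaks, where the K4me3-named list had 108 and the K27me3-named list 76. In A, the high end of A12 (A12:82472242-87472241) held the most H3K4me3 peaks with 605, and the low end of A09 (A09:7315-5007314) the fewest with 196, together with the fewest H3K27me3 peaks of A, 59. Number 9 thus had its emptiest end on the same side in both subgenomes, and its low and high ends differed by 3.53-fold in D09 and 2.93-fold in A09 for H3K4me3. Across all numbers the median fold between both ends of a chromosome was 1.26 in D and 1.29 in A for H3K4me3, and 1.71 in D and 1.44 in A for H3K27me3. Coordinates are those of the deposited lists, counted from 1 on the G. hirsutum TM-1 assembly used by the study, and no annotation of that assembly was used here.

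A few ends stood out by their H3K27me3. The high end of D11 (D11:61084929-66084928) held the most H3K27me3 peaks, 319 beside 414 H3K4me3 peaks. H3K27me3 covered 28.5% of its bases, and the K27me3-named list covered 29.1%. The high end of D10 (D10:58372297-63372296) followed with 310 H3K27me3 peaks and 26.8% of bases (26.3% in the K27me3-named list). With 300 H3K4me3 peaks it was the only one of the 52 ends with more H3K27me3 than H3K4me3 peaks in replicate 1. This did not hold in the replicate 2 lists, where further ends had more K27me3-named than K4me3-named peaks. Examples are D10 high (393 and 125), D11 high (366 and 198) and A10 high (290 and 184), while most ends had fewer. Next by replicate 1 coverage came the low ends of D01 (253 peaks, 16.8% of bases) and D02 (261 peaks, 15.6%), the high end of A10 (A10:95852658-100852657, 241 peaks, 13.2%) and the high end of D05 (202 peaks, 12.1%). The 5 Mb interior window nearest the high end of D05 held 272 H3K27me3 peaks, more than that end. The median end had 6.66% of its bases under H3K27me3 in D and 5.36% in A. H3K27me3 covered more bases than H3K4me3 in 20 of 26 D ends and 20 of 26 A ends, and in all ends of both subgenomes in the replicate 2 lists.

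**Figure D4:**
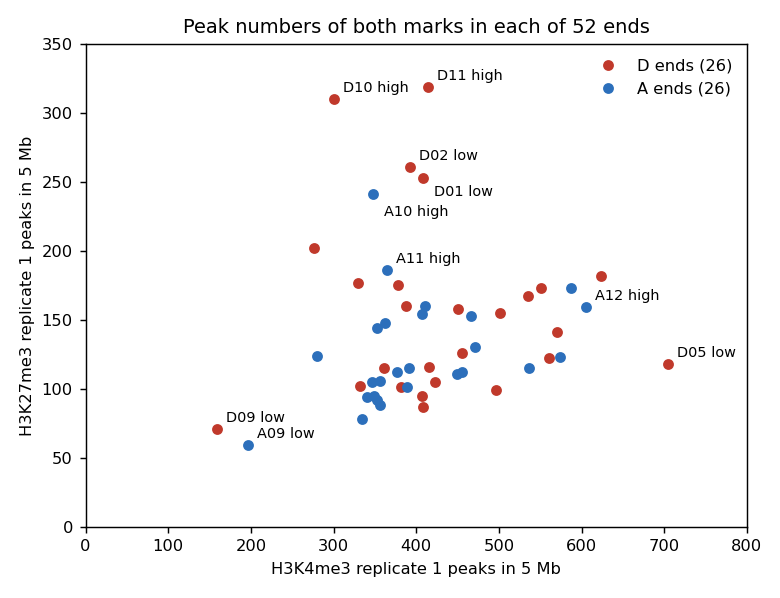
Number of H3K27me3 peaks (vertical axis) against number of H3K4me3 peaks (horizontal axis) in each 5 Mb end, replicate 1, with 26 D ends in red and 26 A ends in blue, and some ends named. The high ends of D11 (319 H3K27me3 peaks) and D10 (310) stand above the rest, the low end of D05 lies far right (705 H3K4me3 peaks), and the low ends of D09 and A09 lie lowest on both axes.

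The numbers of both marks did not go together across D ends (Pearson r = -0.077, Spearman rho = -0.012, n = 26) and did so loosely across A ends (r = 0.34, rho = 0.50, n = 26). Ends with more H3K27me3 peaks also had wider ones in D (r = 0.86, rho = 0.70), and less so in A (r = 0.46, rho = 0.27). D and A ends of the same number and side had like peak numbers (H3K4me3 r = 0.80, rho = 0.72, H3K27me3 r = 0.83, rho = 0.79, n = 26 pairs). The ends of a list share 1 library, so these coefficients are descriptions without a test. Over the 52 ends, the peak numbers of replicate 1 and of the replicate 2 list of the same name had r = 0.93 and rho = 0.90 for H3K4me3 and r = 0.99 and rho = 0.98 for H3K27me3.

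Along the high ends of numbers 10 and 11, H3K27me3 coverage was measured in steps of 0.5 Mb. On D11 it was 5.15% in the outermost step and reached 56.3% between 4.5 and 5 Mb from the end. It was still 27.3% between 5 and 5.5 Mb, so this stretch ran on into the interior. On D10 coverage was 7.79% in the outermost step, 44.5% between 3.5 and 4 Mb, 45.0% between 4 and 4.5 Mb, and 7.14% between 5 and 5.5 Mb. Further in on D10, coverage rose again to 31.3% between 8.5 and 9 Mb. On A10 the highest step within the end was 29.6%, between 1 and 1.5 Mb. On A11 the highest step within the end was 22.6%, between 4.5 and 5 Mb. Coverage on A11 was higher outside the limit, at 28.5% between 5.5 and 6 Mb. The K27me3-named list gave 56.1% at the highest step of D11 and 42.2% at that of D10. H3K4me3 coverage at these steps was 2.03% on D11 and 2.71% on D10.

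**Figure D5:**
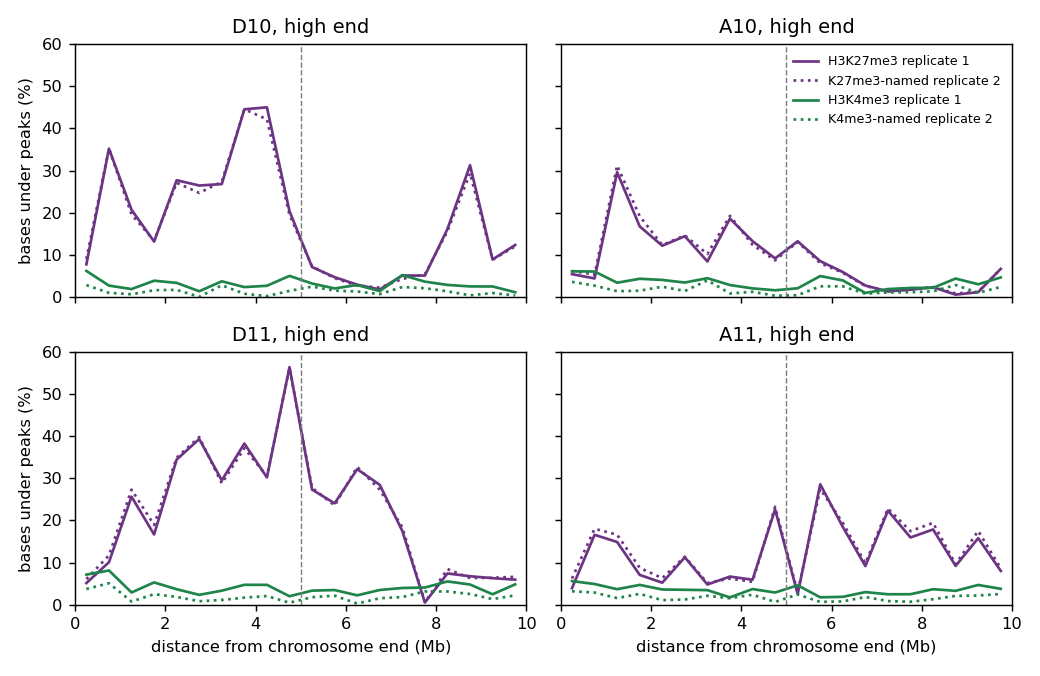
Percent of bases under peaks (vertical axes, 0 to 60%) in steps of 0.5 Mb against distance from the chromosome end in Mb (horizontal axes), for the high ends of D10, A10, D11 and A11. Solid lines are replicate 1 and dotted lines the replicate 2 lists by deposited name, H3K27me3 is purple and H3K4me3 green, and the dashed line is the 5 Mb limit; H3K27me3 peaks at 56.3% on D11 and 45.0% on D10 and both replicates follow the same course.

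The high ends of D10, D11 and A10 also had high shares of H3K4me3 peaks that overlapped H3K27me3. In D10 high, 44.7% of H3K4me3 peaks did (134 of 300, 95% interval 39.0 to 50.5%), in D11 high 37.2%, and in A10 high 25.9% (21.3 to 30.8%). The lowest shares were 8.85% in the high end of D02 (D02:62282819-67282818, 44 of 497) and 8.99% in the high end of A13 (A13:74953577-79953576, 41 of 456). H3K27me3 covered 26.8% of D10 high, 28.5% of D11 high and 13.2% of A10 high. Relative to the product of coverages, shared bases came to 1.49 in D10 high, 1.03 in D11 high (the lowest of the 52 ends) and 1.63 in A10 high, against 1.48 in D02 high and 1.94 in A13 high, so by this measure the ends with high shares did not stand above those with low ones. In the replicate 2 lists the shares were 7.20% in D10 high, 6.57% in D11 high and 3.80% in A10 high, against 1.19% in D02 high and 0.94% in A13 high. The first 3 of these ends thus stood above the other 2 there as well, at a much lower level.

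Single regions showed the same range of outcomes. The widest H3K27me3 peak of the D ends (D08:1722372-1754609) spanned 32238 bp, lay 1.74 Mb from the end and contained 5 H3K4me3 peaks over 5.81% of its bases. The K27me3-named list covered 97.5% of it, and the K4me3-named list had no peak in it. The widest of the A ends (A10:543913-566682) spanned 22770 bp, 0.53 Mb from the end, with 2 H3K4me3 peaks over 3.64% of its bases, 99.8% coverage by the K27me3-named list and no peak of the K4me3-named list. These wide H3K27me3 domains were found again nearly base for base, while their H3K4me3 peaks were not.

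The widest H3K4me3 peak of the D ends (D11:65244365-65248652) spanned 4288 bp, of which H3K27me3 covered 30.5% in replicate 1 and the K27me3-named list 24.6%, and the K4me3-named list had no peak there. The widest of the A ends (A03:2014029-2017050) spanned 3022 bp and met no peak of another list. The longest stretch under both marks in D ends (D10:61729037-61732411) spanned 3375 bp. The K27me3-named list covered 100% of it, and the K4me3-named list none. In A ends the longest (A13:75869365-75871487) spanned 2123 bp, and the K27me3-named list covered 100% and the K4me3-named list 27.9% of it. Of these 4 regions, A13 was the one where both marks were found in both replicates.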

How the data were processed

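ChIP-seq of TM-1 leaves was grouped by sample labels into H3K4me3, H3K27me3 and input (2 libraries each). The study trimmed reads with fastp, mapped them with Bowtie2 to the TM-1 reference genome, removed duplicates with Picard and poorly mapped reads with samtools, and called peaks with MACS2 without a fragment model, in broad mode for H3K27me3 and narrow mode for H3K4me3. Versions and the use of input as control are not given in the sources used here. Its own analyses rest on replicate 1, with replicate 2 as a check. The deposited lists hold the position of each peak as the authors' caller placed it (start and end in bp) and no height, score or read number. Depth cannot be read from the lists, the read totals that the study gives were not used here, and weak peaks cannot be told from strong ones in the lists.

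Peaks were used as listed, in Python 3.11.15 with numpy 2.4.6, pandas 2.3.3, scipy 1.17.1 and matplotlib 3.10.9, with overlaps of at least 1 bp checked against bedtools 2.31.1. Chromosome length was the span from first to last peak over the 4 lists. Values of 13 chromosome numbers were tested by flipping their signs in all 8192 patterns (exact permutation test, two-sided), adjusted by Benjamini-Hochberg over 17 tests with a threshold of 0.05, and the code was tested on simulated data. Shares have exact Clopper-Pearson 95% intervals, for counting error alone, as if peaks were independent. No test took libraries as its units, also where both marks were compared, since 2 against 2 cannot go below an exact p of 0.333. Of 30 alternative settings, 3 were added after the data were seen. Named ends and regions were those with the highest and the lowest peak number and overlap share, the widest peaks, the longest shared stretches and the chromosome numbers with extreme ratios. D11 high in the overlap shares, the ends ranked by H3K27me3 coverage and the steps along numbers 10 and 11 were chosen after their values were seen. The rule for members and the comparisons were chosen with earlier results of these data known. No gene is named and no sequence shown, as no genome or annotation of the assembly was used here.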

Additional observations from a re-analysis of the deposited data

Results flagged for a closer look

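The gain in peak density from interior to ends differed between the subgenomes for both marks, by a test of that difference. On the log2 scale, D minus A was -0.68 ± 0.19 for H3K4me3 and -0.63 ± 0.28 for H3K27me3, lower in D for 13 of 13 chromosome numbers each (exact sign-flip permutation test, p = 0.000244, adjusted p = 0.000692). In the replicate 2 lists by deposited name the differences were -0.69 ± 0.19 for the K4me3-named list and -0.67 ± 0.25 for the K27me3-named list (exact test, adjusted p = 0.00104 each).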

How the results depend on the processing

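Of 442 values under 30 alternative settings, 356 kept direction and side of the threshold, 16 changed sign with no call in either case, 60 lost the call, 1 gained it and 9 reversed. Throughout, 5 of 17 results kept direction and call, namely the density of each mark in ends against interiors, its D minus A difference, and shared bases in ends against interiors. The last of these has the coverages of both marks in its divisor, so it is not independent of the densities. The H3K4me3 width of D against A ends had no call under any setting and lay between -0.027 and 0.078. Values below are log2 ratios, or percentage points for shares. Of ends against interiors, the share of H3K4me3 peaks overlapping H3K27me3 lost its call without single chromosome numbers (1: 1.83, 4: 1.73, 6: 1.84, 7: 1.96, 8: 1.92, 10: 1.45, 11: 1.43, 12: 1.92 points), and with low ends alone (1.93), high ends alone (2.89), 2 Mb ends (1.02), peaks of at least 500 bp (1.17), without numbers 2 to 5 (2.39) or 10 and 11 (0.90), and reversed at 50% overlap (-0.059). The share of H3K27me3 peaks overlapping H3K4me3 lost its call with 2 Mb ends (-1.28), low ends (-3.55), without 2 to 5 (-3.70) or 10 and 11 (-3.69), and reversed in replicate 2 by name (0.18) and among replicate 1 peaks found again there (0.22). The gain of H3K27me3 over H3K4me3 density lost its call with 2 Mb ends (0.14), low ends (0.27), high ends (0.29), without 2 to 5 (0.30) or 10 and 11 (0.22). The H3K27me3 mean width gained a call (0.22).

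Of D against A ends, the settings that lost a call were these. H3K4me3 density lost it in replicate 2 by name (0.032), 2 Mb ends (0.072), 500 bp (0.089), low ends (0.16), high ends (0.013), without 2 to 5 (0.077), unpaired chromosomes (0.10), peaks found again (0.057) and without 10 and 11 (0.084). H3K27me3 density lost it in 2 Mb ends (0.14) and unpaired (0.30). H3K27me3 width lost it in replicate 2 by name (0.078), 2 Mb ends (0.057), 500 bp (0.083), low ends (0.13), high ends (0.10), without 2 to 5 (0.15), unpaired (0.15), peaks found again (0.11) and without 10 and 11 (0.11). The share of H3K4me3 peaks overlapping H3K27me3 lost it in 2 Mb ends (0.61), low ends (1.87), without 2 to 5 (2.37), 50% overlap (0.083), unpaired (2.18) and peaks found again (0.57). Shared bases over the product lost it in replicate 2 by name (-0.0065), 2 Mb ends (-0.21), 500 bp (-0.27), low ends (-0.17), without 2 to 5 (-0.16), unpaired (-0.29) and peaks found again (-0.26).

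With replicate 2 marks taken from sample labels, the lists trade places. Of ends against interiors, H3K4me3 width (0.094), H3K27me3 width (-0.045), the share of H3K27me3 peaks (0.44) and the gain of H3K27me3 over H3K4me3 density (-0.29) reversed, and the share of H3K4me3 peaks lost its call (0.18). Of D against A ends, H3K27me3 width (-0.021) and the share of H3K27me3 peaks (0.69) reversed, and H3K27me3 density (0.032), the share of H3K4me3 peaks (0.36) and shared bases (-0.0065) lost their calls. Leaving out numbers 2 to 5 leaves 9 pairs. The cause of the changes was not tested for any setting. No paired analysis was possible because each test used 1 list per mark, so that replicate numbers of libraries paired nothing; chromosomes were paired by their number.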
